A study of Sus scrofa with 24 samples.

Results

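Ovarian cells that make steroids also make reactive oxygen, and 10 genes for enzymes that remove it were followed through pig ovary development and gestation: SOD1, SOD2, SOD3, CAT, GPX3, GPX4, PRDX1, PRDX3, TXNRD1 and MGST1. They were picked by gene symbol from the deposited table, and all 10 were found among the 18753 genes listed and passed the filter on low counts. Superoxide leaks from the mitochondrial respiratory chain and from the cytochrome P450 that cuts the cholesterol side chain. Superoxide dismutases turn it into hydrogen peroxide, which catalase, glutathione peroxidases and peroxiredoxins then break down. Thioredoxin reductase keeps the thioredoxin that recharges peroxiredoxins in its reduced form, and microsomal glutathione transferase 1 acts on lipid peroxides and reactive compounds in membranes.

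The ovaries came from healthy Chenghua sows kept under like conditions, 3 at each of 4 stages and a different sow for each library. The stages were postnatal day 3 (Day 3), postnatal day 120 at the entry into puberty (Puberty), the sexually mature sow aged 1 year (Year 1) and day 105 of gestation (Pregnancy). The labels name no treatment or genetic change at any stage. RNA was taken from frozen fragments of whole ovary, so a library holds the cells of its fragment, and the phase of the oestrous cycle at Puberty or Year 1 was not given in the sources used here.

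The 12 mRNA libraries held 14615474 to 16187915 counts each. Levels are given as TPM (a level scaled by gene length and by library), and changes as log2 fold changes ± standard error (SE) from edgeR on TMM-scaled counts, called at an adjusted p under 0.05. Markers fitting ovary were present at every stage, with granulosa, theca and steroid-making lists above 0 in all libraries. Some libraries stood apart from their stage mates, by the chi-square per degree of freedom between their counts. It was 382.9 and 298.6 for Year 1 replicate 1 with its mates (43.49 between those), 294.9 and 297 for Pregnancy replicate 3 (20.48 between its mates), and 97.65 and 63.54 for Puberty replicate 3 (34.78 between its mates). STAR, the carrier that brings cholesterol to the side-chain cleavage enzyme, was at 50.68 TPM in Year 1 replicate 1, against 5294.42 and 5107.31 TPM in the other Year 1 libraries. In Pregnancy replicate 3 it was at 3948.57 TPM, against 5.88 and 11.79 TPM in the other Pregnancy libraries. INHA, the inhibin alpha chain of granulosa cells, was at 5935.08 TPM in Puberty replicate 1 and 9078.9 TPM in Year 1 replicate 1, above the 250.81 to 1477.99 TPM of the other 10 libraries. In bulk tissue, fewer cells of a type and less RNA per cell cannot be told apart.

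At Day 3 the leading members were SOD1, PRDX1 and GPX4, whereas from Puberty on GPX3 led in all 9 libraries. GPX3 made up 4.34% to 10.4% of the summed TPM of the 10 genes at Day 3, 35.5% to 71.9% at Puberty, 29.3% to 69.1% at Year 1 and 44.3% to 70.1% in Pregnancy. The sum itself was 1477.58 to 1691.1 TPM at Day 3, 3119.29 to 5402.48 TPM at Puberty, 3069.07 to 9053.98 TPM at Year 1 and 2218.59 to 18038.8 TPM in Pregnancy. The Pregnancy maximum was replicate 3, in which GPX3 was the gene with rank 2 of all genes listed by TPM. Without GPX3 the sum of the other 9 was 1324.52 to 1579.88 TPM at Day 3, 1517.64 to 2323.01 TPM at Puberty, 2168.94 to 2797.77 TPM at Year 1 and 1235.08 to 5401.57 TPM in Pregnancy. Of these ranges, the one at Year 1 alone did not overlap that at Day 3.

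**Figure D1:**
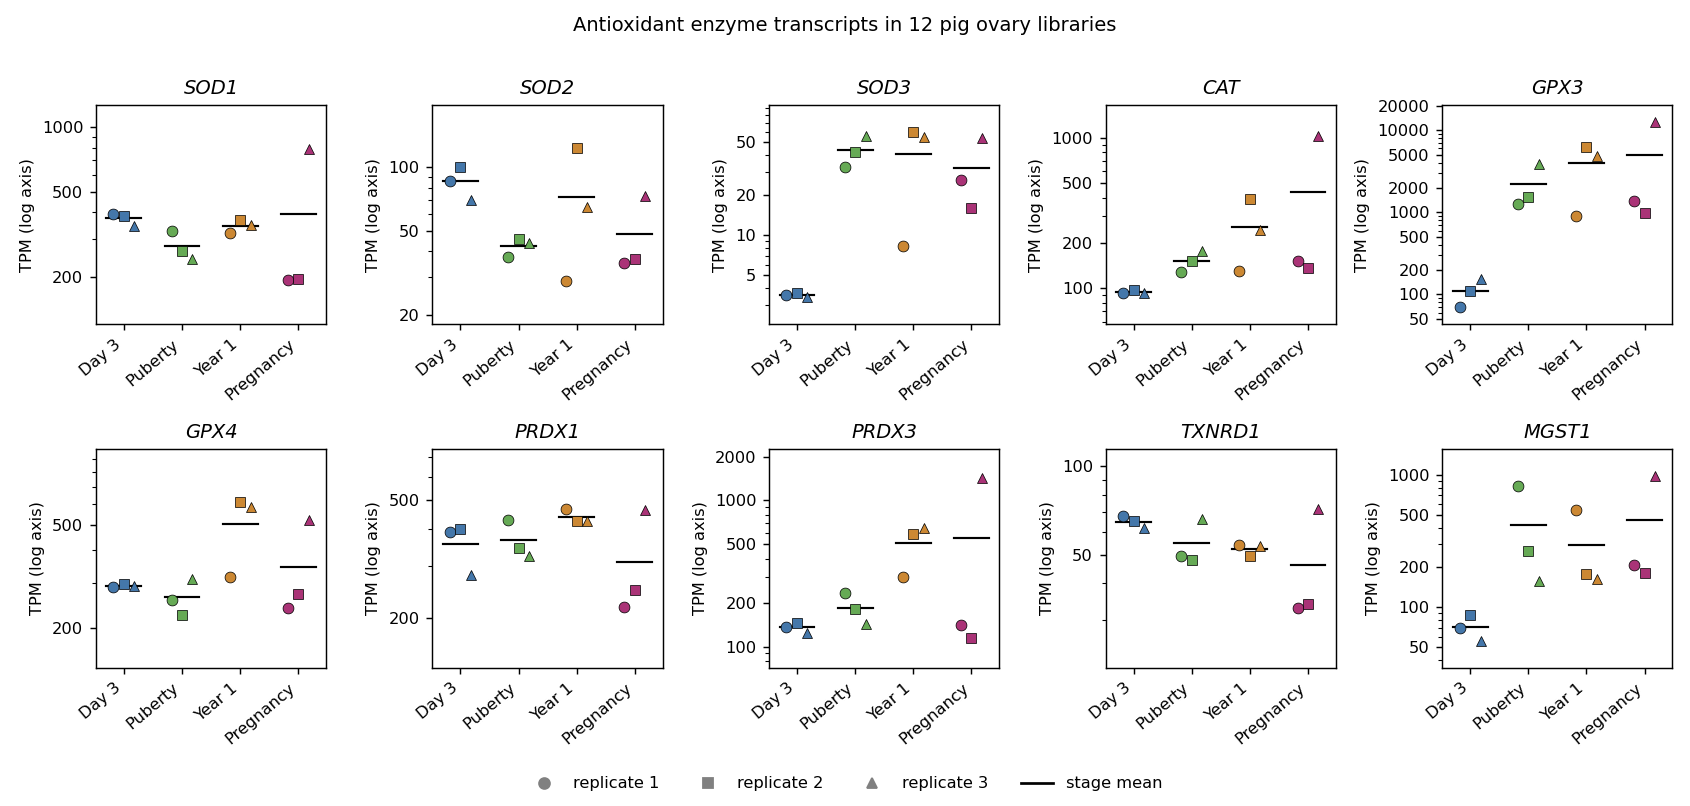
TPM of each of the 10 antioxidant genes (y axis, log scale, its own range in each panel) in 12 ovary libraries by stage (x axis), with 1 point per library, shaped by replicate number, and a line at the stage mean. SOD3, CAT, GPX3 and MGST1 were lowest at Day 3 with no overlap with the next stage, and Pregnancy replicate 3 stood above both of its stage mates in all 10 panels.

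Of the 10 genes, 6 (SOD3, CAT, GPX3, GPX4, PRDX3 and MGST1) differed among the 4 stages (edgeR's quasi-likelihood test, adjusted p 0.00799 to 0.0453), beside 46% of the 15699 genes tested. Against Day 3, 3 of 10 were higher at Puberty, where 11.5% of all genes tested were called higher, and none was lower. At Year 1, 7 of 10 were higher than at Day 3, where 24% of all genes tested were called higher. In Pregnancy, 5 of 10 were higher than at Day 3, where 15.9% of all genes tested were called higher. The 3 comparisons share the Day 3 libraries. The median log2 change of the 10 genes against Day 3 was 0.58 at Puberty, 1.96 at Year 1 and 1.83 in Pregnancy, beside 0.04, 0.03 and 0.10 over all genes tested in the same order. On TMM-scaled CPM, 5 members lay above all Day 3 libraries and 1 below them at Puberty, where 30.2% and 31.4% of all genes tested did so. At Year 1, 9 members lay above all Day 3 libraries (28% of all genes tested), and in Pregnancy 6 did (28.6%). At Year 1, 4 members lay above all Puberty libraries (14.2%).

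Between the later stages no member was called. For Year 1 vs Puberty the count was 0 of 10, where 0.0255% of all genes tested were called, with 4 members at an unadjusted p under 0.05. For Pregnancy vs Year 1 it was 0 of 10, where 2.96% were called, with 0 members at an unadjusted p under 0.05. For Pregnancy vs Puberty it was 0 of 10, where 0% were called, with 2 members at an unadjusted p under 0.05. DESeq2 called 1, 0 and 0 members in these comparisons in the same order, and limma voom with quality weights called 9, 9 and 0. The voom calls were 9 higher at Year 1 against Puberty, where 29.3% of all genes tested were called higher, and 9 lower in Pregnancy against Year 1, where 27.9% were called lower. A p that misses the threshold does not show that the stages were alike.

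**Figure D2:**
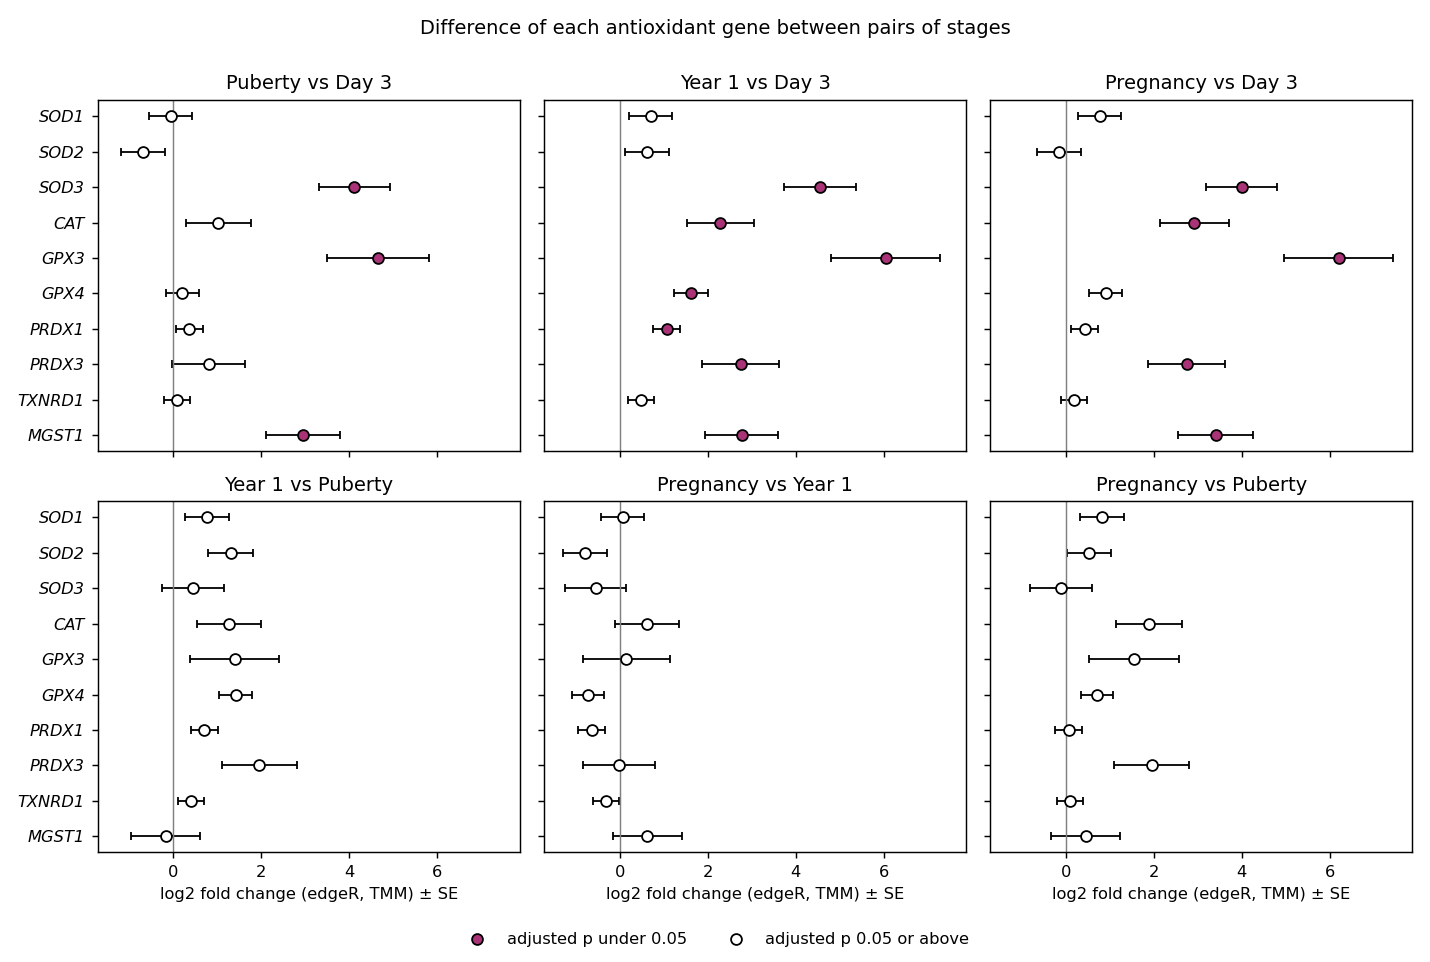
Log2 fold change ± SE (x axis, edgeR on TMM-scaled counts) of each antioxidant gene (y axis) for the 6 pairs of stages, the later stage over the earlier one, with filled points at an adjusted p under 0.05. Filled points are confined to the 3 panels against Day 3, where 3, 7 and 5 of the 10 genes were higher at Puberty, Year 1 and in Pregnancy.

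Of the superoxide dismutases, the secreted one differed between stages and the cytosolic and mitochondrial ones did not pass the edgeR test on all 12 libraries. SOD3 (chr8:18796633-18802156, Sscrofa11.1), which is held in the extracellular matrix, was at 3.57, 3.68 and 3.44 TPM at Day 3, on 29 to 51 counts per library. It was at 32.32, 42.19 and 55.52 TPM at Puberty, at 8.33, 59.09 and 54.6 TPM at Year 1, and at 25.87, 15.9 and 54.1 TPM in Pregnancy. All 9 later libraries lay above all 3 Day 3 libraries, and Year 1 replicate 1 was the lowest of the 9. SOD3 rose against Day 3 by 4.11 ± 0.81 at Puberty (adjusted p = 0.00485), 4.55 ± 0.82 at Year 1 (adjusted p = 0.00166) and 4.00 ± 0.80 in Pregnancy (adjusted p = 0.00413). These calls held in all 23 alternatives run for each of the 3 comparisons, with adjusted p up to 0.0254.

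SOD1 (chr13:195326573-195335273), the copper and zinc enzyme of the cytosol, was at 391.64, 385.14 and 346.92 TPM at Day 3 and at 327.02, 264.19 and 241.35 TPM at Puberty. It was at 321.81, 369.59 and 348.88 TPM at Year 1, and at 193, 196.43 and 788.28 TPM in Pregnancy. The stage means, 374.6 ± 24.2, 277.5 ± 44.4, 346.8 ± 24 and 392.6 ± 343 TPM (SD, n = 3 each), overlapped in range except at Puberty, where all libraries lay below those of Day 3 in TPM but not on TMM-scaled CPM. The 2 lowest libraries and the highest library were all from Pregnancy. The change at Year 1 against Day 3 was 0.70 ± 0.49 (adjusted p = 0.259), and 0.71 without Pregnancy replicate 3 (adjusted p = 0.00652), with adjusted p from 0.00138 to 0.872 over the alternatives.

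SOD2 (chr1:7679352-7689564), the manganese enzyme of the mitochondrial matrix, was at 85.84, 100.45 and 70.22 TPM at Day 3 and at 37.37, 45.63 and 43.52 TPM at Puberty. It was at 28.81, 122.88 and 64.98 TPM at Year 1, and at 35.1, 36.61 and 72.84 TPM in Pregnancy. The Puberty libraries lay below all Day 3 libraries, yet the change of -0.68 ± 0.50 did not pass the test (adjusted p = 0.331). It passed in 3 of 23 alternatives, with adjusted p from 0.00838 to 0.527 over all of them. The 3 included only the 2 stages fitted (adjusted p = 0.00838) and limma voom with quality weights (adjusted p = 0.0253). It also passed without both Year 1 replicate 1 and Pregnancy replicate 3 (adjusted p = 0.0324). Year 1 held both the lowest and the highest library of the 12. Without Year 1 replicate 1 the difference at Year 1 was 1.73 against Puberty (adjusted p = 0.00817) and 1.03 against Day 3 (adjusted p = 0.0392). With all libraries these were 1.30 ± 0.51 (adjusted p = 0.119) and 0.62 ± 0.50 (adjusted p = 0.329), and over all alternatives adjusted p ran from 0.000566 to 0.454 and from 0.00506 to 0.926.

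Among the enzymes that break down peroxide, GPX3 had the largest fitted changes against Day 3. GPX3 (chr16:71980467-71989011) encodes the secreted glutathione peroxidase, a selenoprotein. It was at 69.31, 111.22 and 153.06 TPM at Day 3, at 1280.21, 1547.75 and 3884.84 TPM at Puberty, at 900.13, 6256.21 and 4858.82 TPM at Year 1, and at 1355.28, 983.51 and 12637.25 TPM in Pregnancy. The lowest later library was above the highest Day 3 library, and the later stages overlapped each other. The counts behind these levels ran from 899 to 191387 per library. GPX3 rose against Day 3 by 4.64 ± 1.16 at Puberty (adjusted p = 0.0137), 6.04 ± 1.24 at Year 1 (adjusted p = 0.00298) and 6.19 ± 1.24 in Pregnancy (adjusted p = 0.00411). The Year 1 and Pregnancy calls held in all 23 alternatives. The Puberty call held in 21 of 23 and was lost without Day 3 replicate 1 (adjusted p = 0.0585) or Day 3 replicate 2 (adjusted p = 0.0579). Without Pregnancy replicate 3 the Pregnancy change was 3.99 (adjusted p = 0.00559).

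CAT (chr2:26493664-26533881), the catalase of peroxisomes, was at 92.22, 96.94 and 92.72 TPM at Day 3 and at 128.63, 152.1 and 176.01 TPM at Puberty. It was at 130.77, 392.99 and 242.08 TPM at Year 1, and at 151.28, 136.06 and 1027.91 TPM in Pregnancy. Day 3 was the tightest and lowest stage, and its 3 libraries lay below all 9 others. CAT rose against Day 3 by 2.29 ± 0.76 at Year 1 (adjusted p = 0.0297) and by 2.92 ± 0.78 in Pregnancy (adjusted p = 0.0162), while the Puberty change of 1.02 ± 0.73 did not pass (adjusted p = 0.317). The Puberty change passed with only the 2 stages fitted (adjusted p = 0.000572) and with limma voom with quality weights (adjusted p = 0.00842). It also passed without both Year 1 replicate 1 and Pregnancy replicate 3 (adjusted p = 0.00165). Its adjusted p ran from 0.000572 to 0.478 over the alternatives. The Year 1 call was lost without Day 3 replicate 1, 2 or 3 (adjusted p = 0.0834, 0.0823 and 0.0841), without Year 1 replicate 2 (adjusted p = 0.0988) and without Year 1 replicate 3 (adjusted p = 0.0549). The Pregnancy call was lost without Day 3 replicate 1, 2 or 3 (adjusted p = 0.058, 0.0589 and 0.0587). Without Pregnancy replicate 3 the Pregnancy change was 1.20 (adjusted p = 0.0498). The Year 1 change against Puberty was 1.26 ± 0.74 (adjusted p = 0.254), and 1.27 without Pregnancy replicate 3 (adjusted p = 0.0468), with adjusted p from 0.000216 to 0.614 over the alternatives. Against Day 3, adjusted p over all alternatives ran from 6.4e-06 to 0.115 for Year 1 and from 0.000454 to 0.0816 for Pregnancy.

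GPX4 (chr2:77321568-77323931) reduces lipid peroxides inside membranes, also in mitochondria. It was at 288.49, 295.96 and 290.9 TPM at Day 3, at 257.82, 225.92 and 309.56 TPM at Puberty, at 315.88, 614.52 and 584.42 TPM at Year 1, and at 239.82, 271.8 and 521.43 TPM in Pregnancy. All Year 1 libraries lay above all Puberty and Day 3 libraries. GPX4 rose by 1.62 ± 0.38 at Year 1 against Day 3 (adjusted p = 0.00564), in all 12 fits that left out 1 library. Against Puberty the Year 1 change was 1.42 ± 0.37 (adjusted p = 0.0657). It passed without Year 1 replicate 1 (1.74, adjusted p = 0.00441) or Pregnancy replicate 3 (1.43, adjusted p = 0.0248), and adjusted p over all alternatives ran from 2.17e-05 to 0.213. The Pregnancy change against Day 3 was 0.91 ± 0.37 (adjusted p = 0.0804). It passed without Year 1 replicate 1 (0.90, adjusted p = 0.0328), with adjusted p from 0.0328 to 0.733 over the alternatives, and was 0.40 without Pregnancy replicate 3.

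PRDX3 and PRDX1 are peroxiredoxins, which reduce hydrogen peroxide through a reactive cysteine. PRDX3 (chr14:129079050-129090790), the mitochondrial form, was at 136.41, 145.81 and 123.87 TPM at Day 3, at 231.02, 181.2 and 142.95 TPM at Puberty, at 299.74, 586.22 and 652.27 TPM at Year 1, and at 141.34, 114.88 and 1414.18 TPM in Pregnancy. All Year 1 libraries lay above all Day 3 and Puberty libraries, while Pregnancy held both the lowest and the highest library of the 12. PRDX3 rose against Day 3 by 2.75 ± 0.87 at Year 1 (adjusted p = 0.0248) and by 2.75 ± 0.87 in Pregnancy (adjusted p = 0.034). The Pregnancy call rested on replicate 3: without it the change was 0.51 (adjusted p = 0.322). It was also lost without Day 3 replicate 1, 2 or 3 (adjusted p = 0.0966, 0.0962 and 0.103), with adjusted p from 0.0141 to 0.322 over the alternatives. The Year 1 call was lost without Day 3 replicate 1, 2 or 3 (adjusted p = 0.0726, 0.071 and 0.0779) and without Year 1 replicate 2 or 3 (adjusted p = 0.0543 and 0.0614), with adjusted p from 4.25e-06 to 0.0779 over the alternatives. Year 1 vs Puberty gave 1.95 ± 0.85 (adjusted p = 0.148), and 1.96 without Pregnancy replicate 3 (adjusted p = 0.0248), with adjusted p from 5.22e-05 to 0.33 over the alternatives.

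PRDX1 (chr6:165847390-165859918), mainly cytosolic, was at 391.47, 399.74 and 278.78 TPM at Day 3 and at 429.4, 345.76 and 325.21 TPM at Puberty. It was at 466.21, 425.84 and 425.07 TPM at Year 1, and at 217.91, 248.34 and 462.85 TPM in Pregnancy. The Year 1 libraries lay above all Day 3 libraries, and PRDX1 rose at Year 1 against Day 3 by 1.07 ± 0.31 (adjusted p = 0.0174). The call was lost without Day 3 replicate 3 (adjusted p = 0.0733), the lowest Day 3 library, with adjusted p from 0.00014 to 0.326 over the alternatives. In the test of any stage PRDX1 did not pass (adjusted p = 0.0644).

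TXNRD1 (chr5:80170334-80213889), the cytosolic thioredoxin reductase and a selenoprotein, was at 67.51, 64.95 and 61.74 TPM at Day 3, at 49.69, 48.01 and 66.25 TPM at Puberty, at 54.13, 49.45 and 53.68 TPM at Year 1, and at 33.08, 34.07 and 71.76 TPM in Pregnancy. The stages overlapped except Year 1 and Day 3, where Year 1 was the lower in TPM. With edgeR on all 12 libraries it passed no test between stages, and adjusted p for a difference among any stages was 0.471. On the same libraries limma voom with quality weights called it in 3 pairs, at 0.58 for Year 1 vs Puberty (adjusted p = 0.00329), -0.86 for Pregnancy vs Year 1 (adjusted p = 0.000592) and 0.56 for Year 1 vs Day 3 (adjusted p = 0.00218). Fitting only the 2 stages gave 0.47 for Year 1 vs Day 3 (adjusted p = 0.0398). Without Pregnancy replicate 3 the change at Year 1 against Day 3 was 0.49 (adjusted p = 0.0136), against 0.48 ± 0.30 with it (adjusted p = 0.202) and adjusted p from 0.00218 to 0.683 over the alternatives.

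MGST1 (chr5:56259566-56283823), the microsomal glutathione transferase, was at 69.38, 87.21 and 55.93 TPM at Day 3, at 829.74, 266.54 and 157.27 TPM at Puberty, at 543.26, 177.19 and 162.84 TPM at Year 1, and at 206.94, 180.99 and 988.22 TPM in Pregnancy. All later libraries were above all Day 3 libraries, and the 3 highest were Pregnancy replicate 3, Puberty replicate 1 and Year 1 replicate 1. MGST1 rose against Day 3 by 2.95 ± 0.84 at Puberty (adjusted p = 0.0248), 2.77 ± 0.84 at Year 1 (adjusted p = 0.0198) and 3.40 ± 0.86 in Pregnancy (adjusted p = 0.0127). The Puberty call was lost without Puberty replicate 1 (1.87, adjusted p = 0.114) and without Day 3 replicate 1, 2 or 3 (adjusted p = 0.0819, 0.0724 and 0.0909), with adjusted p from 0.00064 to 0.114 over the alternatives. The Year 1 call was lost without Day 3 replicate 1, 2 or 3 (adjusted p = 0.0628, 0.0522 and 0.0702), with adjusted p from 0.00138 to 0.0702 over the alternatives. The Pregnancy call was lost without Day 3 replicate 3 (adjusted p = 0.0536), with adjusted p from 0.000112 to 0.0536 over the alternatives, and the change was 2.06 without Pregnancy replicate 3 (adjusted p = 0.0451).

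Scaling by library totals only turned the sign of TXNRD1 and SOD2 at Year 1 against Day 3, and the sign of SOD1 turned on log2(TPM + 1), where the unit and the test differ too. TMM factors ran from 1.255 in a Day 3 library to 0.7518 in a Year 1 library, so the scaled change at Year 1 against Day 3 lies above the change in TPM for all 10 genes. With library totals only, the median change of all genes tested was -0.56, against 0.03 with TMM. For TXNRD1 the change was 0.48 ± 0.30 with TMM, -0.13 with library totals only and -0.30 on log2(TPM + 1) with limma. On TPM all Year 1 libraries lay below all Day 3 libraries for TXNRD1, and on TMM-scaled counts all lay above. SOD2 changed by 0.62 with TMM, -0.054 with library totals only and -0.45 on log2(TPM + 1), and SOD1 by 0.70 with TMM, 0.092 with library totals only and -0.11 on log2(TPM + 1). None of these values passed the test. SOD3, CAT, GPX3, GPX4, PRDX1, PRDX3 and MGST1 were higher at Year 1 in all 3 fits. CAT and PRDX1 lost the call with library totals only (1.63, adjusted p = 0.0618, and 0.46, adjusted p = 0.165), and SOD3 and GPX3 alone kept it on log2(TPM + 1). The other 5 had adjusted p = 0.0573 to 0.326 there.

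**Figure D3:**
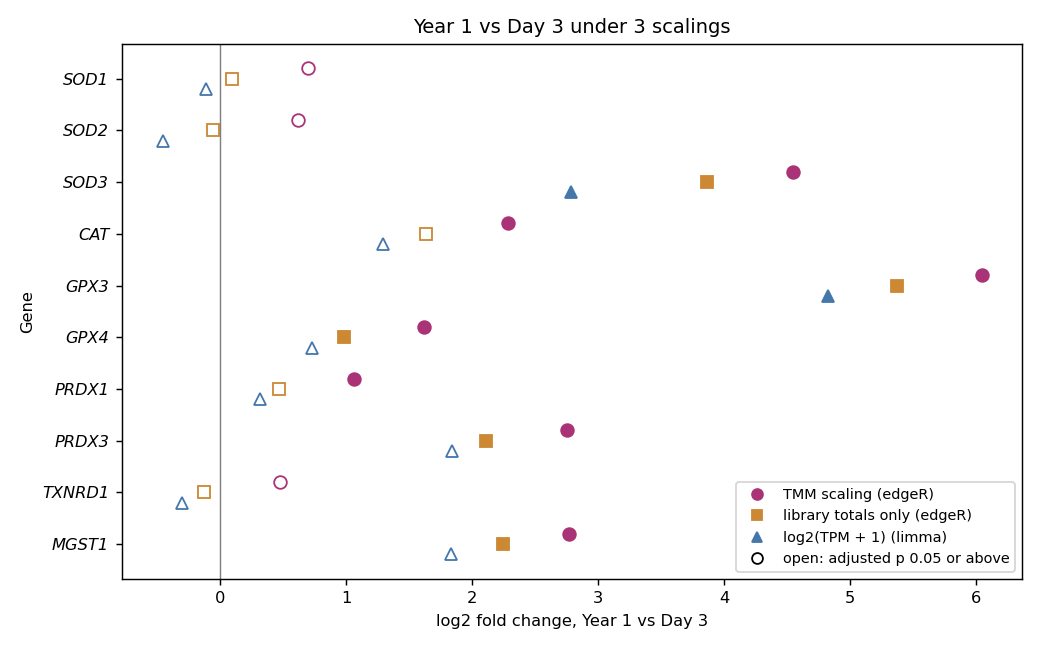
Log2 fold change at Year 1 over Day 3 (x axis) of each antioxidant gene (y axis) with TMM scaling, with library totals only and on log2(TPM + 1), filled where the adjusted p was under 0.05. SOD3 and GPX3 are filled in all 3 fits. SOD2 and TXNRD1 lie below 0 with library totals only and on log2(TPM + 1), SOD1 lies below 0 on log2(TPM + 1) alone, and all 3 genes are open throughout.

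Library by library, GPX3, CAT and PRDX3 were highest where STAR, CYP11A1 and HSD3B1 were highest. Other steroid synthesis genes peaked elsewhere. CYP17A1 and HSD17B1 were highest in Year 1 replicate 1 (763.99 and 2168.39 TPM), and CYP19A3 in Puberty replicate 1 (867.98 TPM). STAR ranged from 3948.57 to 5294.42 TPM over Pregnancy replicate 3 and Year 1 replicates 2 and 3, and was at 217.37 TPM or less in the other 9 libraries. CYP11A1, the side-chain cleavage enzyme, was at 4243.87 to 4868.97 TPM in these 3 libraries and at 634.69 TPM or less in the others. In the same 3 libraries GPX3 was at 4858.82 to 12637.25 TPM, PRDX3 at 586.22 to 1414.18 TPM, CAT at 242.08 to 1027.91 TPM and GPX4 at 521.43 to 614.52 TPM. For each of these 4 genes the 3 libraries were the highest of the 12. The other members did not share this. The highest library was Year 1 replicate 1 for PRDX1, while Year 1 replicates 2 and 3 held 177.19 and 162.84 TPM of MGST1. SOD1 was at 369.59 and 348.88 TPM in these 2 libraries, against 391.64 TPM in Day 3 replicate 1. TXNRD1 was there at 49.45 and 53.68 TPM, against 61.74 to 67.51 TPM at Day 3. SOD2 was at 64.98 TPM in Year 1 replicate 3, against 70.22 to 100.45 TPM at Day 3. SOD3 was at 55.52 TPM in Puberty replicate 3, against 54.6 TPM in Year 1 replicate 3 and 54.1 TPM in Pregnancy replicate 3. How many of all genes were highest in the 3 libraries with high STAR was not counted, so nothing is read from the number of members. All 10 members were also detected at Day 3, where STAR was at 0.18 to 0.42 TPM and CYP11A1 at 1.57 to 2.61 TPM. HSD3B1 was at 91.24 to 131.17 TPM at Day 3 and at 142.47 and 144.55 TPM in Pregnancy replicates 1 and 2. In the 3 libraries with high STAR it was at 8474.3 to 11031.36 TPM.

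Pregnancy replicate 3 held 11 times the mean PRDX3 of its stage mates, 10.8 times their GPX3, 7.15 times their CAT, 5.09 times their MGST1 and 4.05 times their SOD1. For the other 5 genes the ratio was 1.99 to 2.59. In Year 1 replicate 1 the mates' mean was 6.82 times higher for SOD3, 6.17 times for GPX3, 3.26 times for SOD2, 2.43 times for CAT, 2.07 times for PRDX3 and 1.9 times for GPX4. MGST1 ran the other way there and was 3.2 times the mean of its mates.

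**Figure D4:**
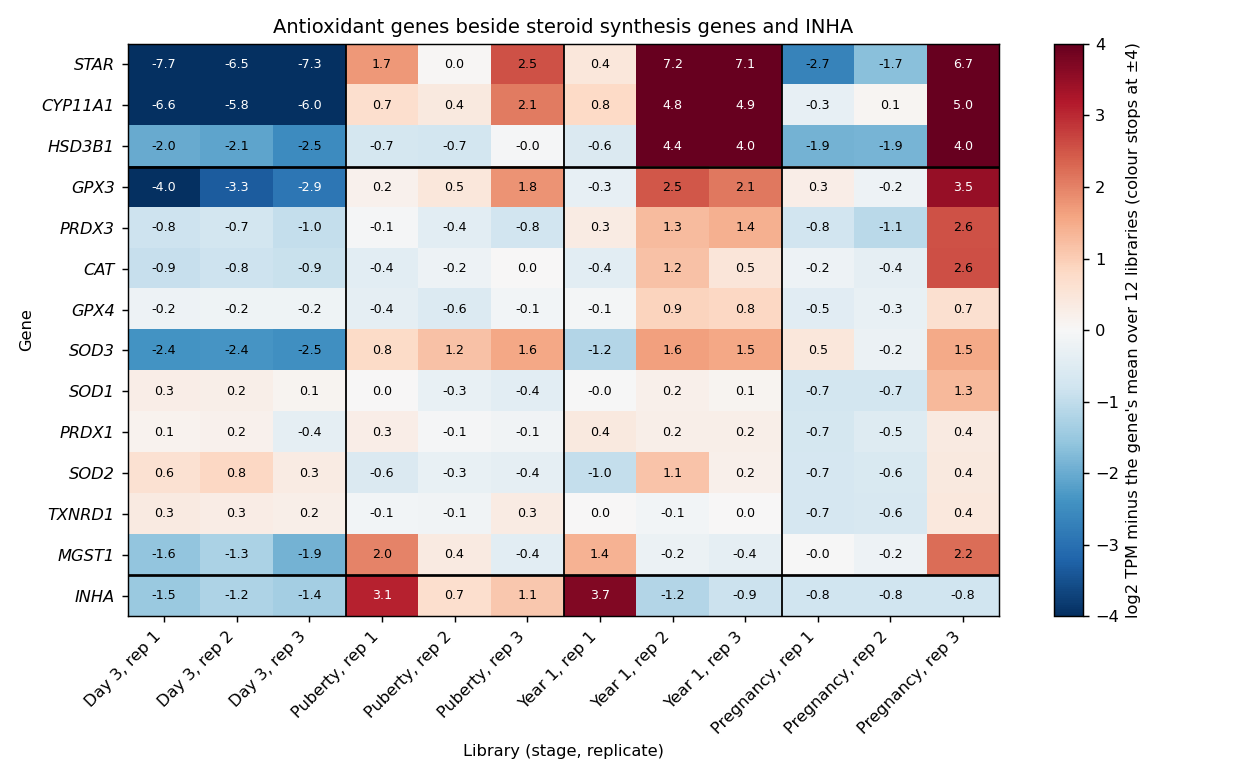
Log2 TPM of the 10 antioxidant genes, of 3 steroid synthesis genes above them and of INHA below them (rows), minus each gene's mean over the 12 libraries (columns, by stage), with colour stopping at ±4. GPX3, PRDX3, CAT and GPX4 are reddest in the 3 libraries where STAR, CYP11A1 and HSD3B1 are reddest, and MGST1 is reddest in Pregnancy replicate 3, Puberty replicate 1 and Year 1 replicate 1. INHA is reddest in the last 2 of these and also above its mean in Puberty replicates 2 and 3, where MGST1 was at 266.54 and 157.27 TPM.

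Markers of other cells moved with these libraries, and their part in the results was not tested. The 10 granulosa markers summed to 433.8 to 524.9 TPM at Day 3, 2305 to 10310 TPM at Puberty, 539.4 to 15490 TPM at Year 1 and 917.1 to 1228 TPM in Pregnancy, with no marker at 0 throughout a stage. The highest sums, in Puberty replicate 1 and Year 1 replicate 1, were in libraries with high MGST1. In Pregnancy replicate 3, where MGST1 was highest, the granulosa sum was 917.1 TPM. The 7 erythrocyte markers listed summed to 886 to 1149 TPM at Day 3, 186.2 to 253.6 TPM at Puberty, 182.1 to 973.1 TPM at Year 1 and 284.8 to 2057 TPM in Pregnancy, nearly all of it HBB, and none was at 0 throughout a stage. Red blood cells are rich in catalase, peroxiredoxin and superoxide dismutase. HBB was at 2036.1 TPM in Pregnancy replicate 3, 964.19 TPM in Year 1 replicate 2 and 251.39 TPM in Year 1 replicate 3. In these libraries, in the same order, PRDX3 was at 1414.18, 586.22 and 652.27 TPM and GPX3 at 12637.25, 6256.21 and 4858.82 TPM. GPX4 was at 521.43, 614.52 and 584.42 TPM and CAT at 1027.91, 392.99 and 242.08 TPM. SOD1 was at 788.28, 369.59 and 348.88 TPM. PRDX2, another peroxiredoxin, ran in the reverse order of HBB, at 1223.9, 1869.6 and 2776.59 TPM. The part of blood in these levels was not tested. The 10 macrophage markers summed to 464.8 to 800.2 TPM at Day 3, 573.8 to 1413 TPM at Puberty, 315.8 to 585.5 TPM at Year 1 and 878.2 to 2263 TPM in Pregnancy. The 5 theca markers summed to 58.87 to 109.7 TPM at Day 3, 1152 to 3278 TPM at Puberty and 522.4 to 1894 TPM in Pregnancy, and at Year 1 to 4343 TPM in replicate 1 and 83.91 and 81.4 TPM in replicates 2 and 3. The 8 endothelial markers summed to 407.8 and 456.5 TPM in Year 1 replicates 2 and 3 and 493.6 TPM in Pregnancy replicate 3, the 3 libraries with high STAR, and to 222 to 340.4 TPM in the other 9. The 6 smooth muscle markers summed to 469.4 to 719.5 TPM at Day 3, 1910 to 2816 TPM at Puberty and 1171 to 3205 TPM in Pregnancy (1171 in replicate 3), and at Year 1 to 4289 TPM in replicate 1, 961.6 TPM in replicate 2 and 2019 TPM in replicate 3. None of these markers was at 0 throughout a stage. The 8 oocyte markers summed to 8.16 to 188.1 TPM in the 9 later libraries, against 1165 to 1752 TPM at Day 3.

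With both Year 1 replicate 1 and Pregnancy replicate 3 left out, 9 of 10 were called higher at Year 1 than at Puberty, by 0.48 to 2.28, where 25.2% of all genes tested were called higher. In the same fit 9 of 10 were called lower in Pregnancy than at Year 1, by -0.92 to -2.57, where 24.9% of all genes tested were called lower. MGST1 was the exception in both (adjusted p = 0.279 and 0.921). These 2 comparisons share the Year 1 libraries, which then number 2. Both libraries left out were picked because they stood apart in these data. Without them Year 1 held only libraries with high STAR and Pregnancy only libraries with low STAR. Stage and STAR level thus cannot be told apart in that fit. Leaving out only Pregnancy replicate 3 gave 5 higher members at Year 1 against Puberty (SOD1, CAT, GPX4, PRDX1 and PRDX3, with 10.7% of all genes tested higher) and 5 lower in Pregnancy against Year 1 (SOD1, GPX4, PRDX1, PRDX3 and TXNRD1, with 11.1% lower). Leaving out only Year 1 replicate 1 gave 2 and 2 (SOD2 and GPX4 in both), with 18.5% of all genes tested higher and 13.9% lower. For Pregnancy vs Year 1 the sign of 4 members turned without Pregnancy replicate 3. SOD1 was then at -1.06 (adjusted p = 0.0195), against 0.066 with all libraries. GPX3 was at -2.06 (adjusted p = 0.0969), against 0.15, CAT at -1.09 (adjusted p = 0.0947), against 0.63, and MGST1 at -0.74 (adjusted p = 0.458), against 0.63. Over all alternatives adjusted p for this pair ran from 0.00069 to 0.993 for SOD1, 0.00322 to 0.982 for GPX3, 0.000797 to 0.844 for CAT and 0.288 to 0.934 for MGST1.

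Over the 12 libraries, the gene nearest to GPX3 in log2 CPM was CYP11A1 (Pearson r = 0.984), followed by SELENOP, the selenium transport protein (r = 0.983), and MMP19, a matrix protease (r = 0.974). These are descriptions among 10579 candidate genes, with stage, depth and cell makeup shared by all. PRDX3 was nearest to MRPL34, a mitochondrial ribosomal protein (r = 0.99), CAT to REEP2 (r = 0.995) and SOD3 to PAK2 (r = 0.975). SOD1 was nearest to FAM174A (r = 0.978) and then to COX6A1, a cytochrome oxidase subunit (r = 0.977). PRDX1 was nearest to NDUFB8, a subunit of respiratory complex I (r = 0.977), and TXNRD1 to cytochrome c, CYCS (r = 0.943). GPX4 was nearest to CHMP2A (r = 0.985), SOD2 to MOSPD2 (r = 0.967) and MGST1 to RUNDC3A (r = 0.979). Among the members themselves, r was highest for SOD3 with GPX3 (0.946) and for CAT with PRDX3 (0.928), and lowest for SOD2 with MGST1 (-0.0859).

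Ratios within a library do not depend on scaling. GPX3 over GPX4, the secreted over the membrane-acting peroxidase, was 0.24, 0.376 and 0.526 at Day 3, 4.97, 6.85 and 12.55 at Puberty, 2.85, 10.18 and 8.31 at Year 1, and 5.65, 3.62 and 24.24 in Pregnancy. Every later library was above every Day 3 library, and the later stages overlapped. The stage means of the log2 ratio spanned 4.45. The sum of squares between stages was tested by an exact permutation test over 369600 assignments of libraries to stages (p = 0.0168, and 0.0503 adjusted over the 3 ratios tested). The adjusted p ran from 0.00786 to 0.146 over the alternatives. It was under 0.05 without Puberty replicate 1 or 3 (0.0462 and 0.0499), Year 1 replicate 2 or 3 (0.0432 and 0.0475), or Pregnancy replicate 1, 2 or 3 (0.0469, 0.0345 and 0.0323), and at most 0.0573 without any other library. PRDX3 over PRDX1, the mitochondrial over the mainly cytosolic peroxiredoxin, was 0.349, 0.365 and 0.444 at Day 3, 0.538, 0.524 and 0.44 at Puberty, 0.643, 1.38 and 1.54 at Year 1, and 0.649, 0.463 and 3.06 in Pregnancy. It was above 1 in the 3 libraries with high STAR and in no other. Its stage means spanned 1.53 (exact permutation p = 0.109, adjusted 0.164), with an adjusted p of 0.0345 without Pregnancy replicate 3 and a range of 0.00786 to 0.326 over the alternatives. SOD2 over SOD1 lay between 0.0895 and 0.333, both at Year 1, and its stage means spanned 0.63 (exact permutation p = 0.563, adjusted 0.563).

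**Figure D5:**
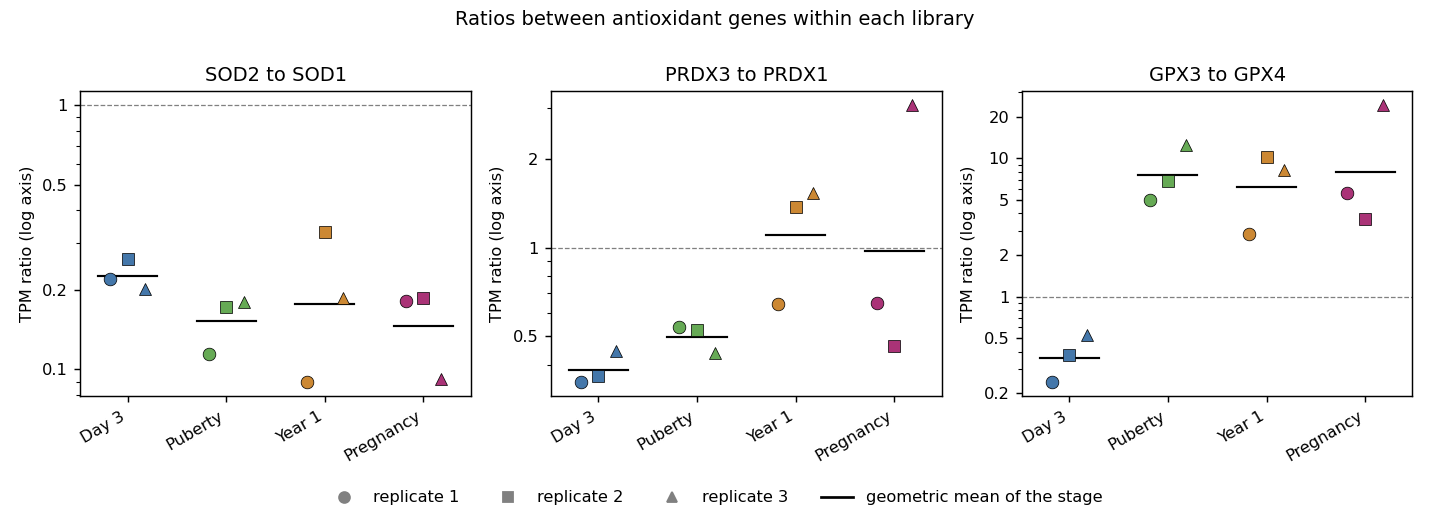
TPM ratios within each library (y axes, log scale) by stage (x axis) for SOD2 over SOD1, PRDX3 over PRDX1 and GPX3 over GPX4, with 1 point per library, shaped by replicate number, a line at the geometric mean of the stage and a dashed line at 1. The GPX3 over GPX4 ratio is below 1 in all Day 3 libraries and at 2.85 or above in all others, and the PRDX3 over PRDX1 ratio exceeds 1 in Year 1 replicates 2 and 3 and Pregnancy replicate 3.

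Other redox genes were taken from 10 lists with 126 genes, of which 120 were in the table and 115 were tested. Against Day 3, 20 rose and 12 fell at Puberty (27.8% called), 55 rose and 13 fell at Year 1 (59.1%), and 31 rose and 13 fell in Pregnancy (38.3%). For Year 1 vs Puberty and Pregnancy vs Puberty none was called, and for Pregnancy vs Year 1 NOX4, a hydrogen peroxide source, was the 1 called and was higher (1.86 ± 0.34, adjusted p = 0.0401). All genes tested were called in 28.7%, 48% and 34% of cases against Day 3 in the same stage order.

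The list of the thioredoxin system held 10 genes, not all of which recharge peroxiredoxins. Against Day 3, 4 were higher and 1 lower at Puberty, and 8 were higher and 1 lower at Year 1. In Pregnancy, 5 were higher and 1 lower. These are 50%, 90% and 60% of the list, beside 28.7%, 48% and 34% of all genes tested. TXNIP, which binds and inhibits thioredoxin, is in the list and rose in Pregnancy (1.72 ± 0.31, adjusted p = 0.00255). TXN, thioredoxin itself, averaged 2095 ± 329.6 TPM at Puberty, 2129 ± 390.3 TPM at Year 1 and 1197 ± 288.8 TPM in Pregnancy, against 319.7 ± 14.26 TPM at Day 3 (SD, n = 3 each). It rose by 3.11 ± 0.22, 3.48 ± 0.22 and 2.73 ± 0.21 against Day 3 (adjusted p = 0.000112, 1.9e-05 and 5.36e-05). TXNRD3, a reductase known mainly from testis, fell at Puberty (-1.32 ± 0.26, adjusted p = 0.00471), and TXNRD2, the mitochondrial reductase, rose at Year 1 (1.41 ± 0.24, adjusted p = 0.00114).

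The list of selenoprotein supply had 17 tested genes, and it also held selenoproteins themselves, such as SELENOT and SELENOM. Against Day 3, 3 of the 17 rose and 2 fell at Puberty, and 8 rose and 1 fell at Year 1. In Pregnancy, 4 rose and 2 fell. These are 29.4%, 52.9% and 35.3% of the list, near the 28.7%, 48% and 34% of all genes tested. SELENOP averaged 2722 ± 491.5, 3103 ± 1479 and 3558 ± 1694 TPM at Puberty, Year 1 and in Pregnancy, against 526.9 ± 78.48 TPM at Day 3 (SD, n = 3 each). SELENBP1, a selenium-binding protein, rose by 3.06 ± 0.51 at Puberty (adjusted p = 0.0022) and by 4.43 ± 0.54 in Pregnancy (adjusted p = 0.000411). The 2 that fell in Pregnancy were SECISBP2 (-0.76 ± 0.25, adjusted p = 0.0413) and EEFSEC (-0.67 ± 0.21, adjusted p = 0.0292).

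Of 12 tested glutathione transferases and glutaredoxins, 9 rose and 2 fell at Year 1 against Day 3 (91.7% called, beside 48% of all genes tested). At Puberty 2 rose and 2 fell (33.3%, beside 28.7%), and in Pregnancy 4 rose and 2 fell (50%, beside 34%). GSTA1, an alpha-class transferase known from steroid-making cells, averaged 3742 ± 2272 TPM at Year 1, against 92.07 ± 43.26 TPM at Day 3 (6.21 ± 1.05, adjusted p = 0.00117). MGST2, a relative of MGST1, went the opposite way and averaged 0.607 ± 0.195 TPM at Year 1, against 55.88 ± 15.11 TPM at Day 3 (-5.70 ± 0.78, adjusted p = 0.000431). In the list of glutathione synthesis and recycling 9 of 18 rose and 0 fell at Year 1 against Day 3 (50% called, near the 48% of all genes tested), among them IDH2, the mitochondrial source of NADPH (1.20 ± 0.24, adjusted p = 0.00262). For this list 3 rose and 0 fell at Puberty (16.7%), and 4 rose and 1 fell in Pregnancy (27.8%). Both shares were below the 28.7% and 34% of all genes tested.

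Of 18 genes of the NRF2 pathway, the transcriptional programme induced by oxidants, 6 rose and 1 fell at Puberty, 8 rose and 1 fell at Year 1, and 8 rose and 1 fell in Pregnancy, each against Day 3. These are 38.9%, 50% and 50% of the list, against 28.7%, 48% and 34% of all genes tested. NFE2L2, which encodes NRF2, rose by 1.24 ± 0.23 at Puberty (adjusted p = 0.00361), and HMOX1, the haem oxygenase also abundant in macrophages, rose by 2.10 ± 0.32 (adjusted p = 0.00156). Both also rose in Pregnancy (1.21 ± 0.23, adjusted p = 0.00305, and 2.14 ± 0.32, adjusted p = 0.00102). At Year 1 NFE2L2 was at 38.83, 19.17 and 23.78 TPM, against 30.86 to 35.11 TPM at Day 3. HMOX1 was at 160.41, 97.55 and 54.01 TPM at Year 1, against 54.81 to 79.28 TPM at Day 3. ABCC2 fell at Year 1 against Day 3 (-4.78 ± 0.73, adjusted p = 0.000745). The list also holds KEAP1, which restrains NRF2 and was higher in Pregnancy than at Day 3 (0.53 ± 0.14, adjusted p = 0.0173). Among 12 tested oxidant sources 3 fell and 1 rose at Puberty against Day 3 (33.3% called, beside 28.7% of all genes tested). At Year 1, 4 fell and 4 rose (66.7%, beside 48%), and in Pregnancy 3 fell and 2 rose (41.7%, beside 34%). NCF1, a subunit of the phagocyte oxidase, averaged 7.0 ± 3.01 TPM at Puberty, against 92.35 ± 32.09 TPM at Day 3 (-3.39 ± 0.49, adjusted p = 0.00128). Peroxisome biogenesis, which makes the organelle of catalase, had 2 of 16 higher and 4 lower at Year 1 against Day 3 (37.5% called, beside 48% of all genes tested). PEX14, part of the import pore, fell by 0.79 ± 0.16 (adjusted p = 0.00276) while CAT rose. Of the other peroxidases tested, 3 of 4 peroxiredoxins and 2 of 3 glutathione peroxidases rose at Year 1 against Day 3. At Puberty 0 of 4 and 0 of 3 rose, and in Pregnancy 0 of 4 and 1 of 3. Of all genes tested, 24%, 11.5% and 15.9% were called higher at Year 1, Puberty and in Pregnancy. GPX2 and GPX6 were not tested. PRDX2 rose at Year 1 (2.36 ± 0.45, adjusted p = 0.00223). GPX1 rose at Year 1 (2.65 ± 0.87, adjusted p = 0.0279) and in Pregnancy (2.98 ± 0.88, adjusted p = 0.025). CCS, the copper chaperone of SOD1, passed at Year 1 (0.73 ± 0.20, adjusted p = 0.0138), with a mean of 44.27 ± 10.88 TPM at Year 1, against 45.59 ± 5.70 TPM at Day 3 (SD, n = 3 each), and its mean TPM was thus not higher at Year 1.

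In the authors' deposited table, whose q-values are from DESeq2 per the file headers, members were counted at a q-value under 0.05. At Puberty against Day 3, 5 were higher (SOD3, CAT, GPX3, PRDX3 and MGST1) and 1 was lower (SOD2), where 45.9% of genes with a q-value passed. Against Day 3, 9 were higher at Year 1 (46.4%) and 5 in Pregnancy (39.1%). By the authors' deposited table, members higher at Year 1 against Puberty numbered 4 (11%), and none passed for Pregnancy vs Year 1 (4.37%) or Pregnancy vs Puberty (0.456%).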

How the data were processed

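Per the submitters' processing notes, mRNA reads were processed with Bowtie2 2.3.4.3, RSEM 1.3.1 and DESeq2 1.4.5 on Sscrofa11.1. The roles and order of the tools were not given in the sources used here. The authors deposited estimated counts per gene and library, TPM values, log2 fold changes and, per the file headers, DESeq2 q-values for pairs of stages. Estimated counts were rounded to whole numbers. Genes were kept by filterByExpr at a minimum count of 10, which left 15699 of 18753 genes. Counts were scaled by TMM and tested with edgeR 4.0.16 (quasi-likelihood, R 4.3.3) in 1 fit of 12 libraries with 1 term per stage, with Benjamini-Hochberg adjustment across every gene tested and a threshold of 0.05. The spread was thus shared over stages, and p-values measure the spread between sows and between the fragments sampled. The lowest chi-square per degree of freedom between 2 libraries of a stage was 18.04, so none was a duplicate of another.

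The members and gene lists were chosen with earlier results of these data known. Named genes were all members, the 3 nearest genes of each by Pearson r of log2 CPM (mean at least 3), up to 2 called genes per list and pair of stages with the lowest adjusted p, and 8 marker genes. Gene positions came from the RefSeq gene table of Sscrofa11.1. Ratios of TPM were tested by exact permutation. The members' lowest counts were those of SOD3 at Day 3, 29 to 51.

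Alternatives were RLE and upper quartile scaling, a minimum count of 50 or no filter at all, limma voom with quality weights (limma 3.58.1), DESeq2 1.42.0, a replicate term, a fit of 2 stages, each library left out, and Year 1 replicate 1 and Pregnancy replicate 3 left out together. Library totals only and limma on log2(TPM + 1) were chosen after seeing the data. The 2 libraries left out together were picked for standing apart in these data, so that choice also drew on the data. The scripts were tested on simulated counts. The small RNA libraries were not analysed here.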

Additional observations from a re-analysis of the deposited data

How the results depend on the processing

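The 15 called changes of members kept their sign in every alternative run. Of the 60 changes of 10 members over 6 pairs of stages, 25 changed sign in at least 1 alternative, none of them called. The call of 6 members at any stage became 10 with limma voom, 10 when Year 1 replicate 1 and Pregnancy replicate 3 were both left out, 3 with a replicate block and 2 on log2(TPM + 1). Leaving out 1 library it ran from 2 (without Day 3 replicate 1 or 2) to 9 (without Pregnancy replicate 3). The 3 called at Puberty against Day 3 became 6 with voom, with only the 2 stages fitted and without both libraries, and ran from 1 (without Day 3 replicate 1 or 2) to 3. The 7 at Year 1 against Day 3 became 2 on log2(TPM + 1) and ran from 3 (without Day 3 replicate 3) to 9 (without Pregnancy replicate 3). The 5 in Pregnancy against Day 3 became 3 on log2(TPM + 1) and ran from 2 (without Day 3 replicate 3) to 6 (without Year 1 replicate 1). The 0 for Year 1 vs Puberty became 1 with DESeq2, 9 with voom and 9 without both libraries, and ran from 0 to 5 (without Pregnancy replicate 3). The 0 for Pregnancy vs Year 1 became 9 with voom and 9 without both, and ran from 0 to 5 (without Pregnancy replicate 3). For Pregnancy vs Puberty it was 0 in all. The cause was not tested.

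For Pregnancy vs Year 1, GPX3 was -2.14 with voom, -0.29 with the replicate block, -0.23 on log2(TPM + 1) and -2.55 without both libraries, and -2.06 to 0.69 leaving out 1 library. CAT was -0.96 with voom and -1.45 without both, and -1.09 to 1.17 leaving out 1. SOD1 was -1.01 with voom, -0.11 with the replicate block, -0.16 on log2(TPM + 1) and -1.18 without both, and -1.06 to 0.42 leaving out 1. MGST1 was -0.091 without both, and -0.74 to 1.27 leaving out 1. PRDX3, at -0.0041 with all libraries, was 0.041 with upper quartile scaling, 0.0036 with a minimum count of 50 and 0.12 with library totals only, and -2.25 to 0.49 leaving out 1 (-2.57 without both). At Year 1 against Day 3, SOD1 was -0.11 on log2(TPM + 1), TXNRD1 was -0.13 with library totals only and -0.30 on log2(TPM + 1), and SOD2 was -0.054 and -0.45 in these, and -0.084 to 1.04 over the fits that left out libraries. Without both libraries the log2 span of stage means was 1.92 for PRDX3 over PRDX1 and 4.67 for GPX3 over GPX4 (both adjusted p = 0.00786, exact permutation). Leaving out 1 library, it was 1.34 to 1.92 and 4.15 to 5.01, and 0.53 to 0.81 for SOD2 over SOD1.

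Libraries with the same replicate number came from different sows, and the correlation of their deviations ran from -0.393 to 0.402. With 3 libraries a stage, 1 that stands apart moves the deviations of its whole stage. These correlations thus cannot show whether libraries of the same number shared a batch. With the block, MGST1 at Puberty against Day 3 (adjusted p = 0.0508) and PRDX3 in Pregnancy against Day 3 (adjusted p = 0.104) were no longer called. DESeq2 gave no adjusted p for PRDX3, which was left out there. With 3 sows a stage, the spread within Year 1 and Pregnancy limits what can be detected.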

Other observations

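TXN and PRDX3 did not share their highest libraries. Pregnancy replicate 3 held 951.61 TPM of TXN, against 1123.69 and 1515.1 TPM in its stage mates, while its PRDX3 was the highest of the 12 libraries. Year 1 replicate 1 held 2571.18 TPM of TXN, against 1831.86 and 1984.39 TPM in its stage mates, while its PRDX3 was the lowest of that stage.

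GSTA1 levels of 5533.83 and 4505.58 TPM were found in Year 1 replicates 2 and 3. Next came Pregnancy replicate 3 with 2224.41 TPM and Puberty replicate 1 with 2178.09 TPM, and the other Pregnancy libraries held 297.43 and 343.07 TPM. NOX4 was lowest, with 0.48 and 0.62 TPM, in Year 1 replicates 2 and 3, and highest, with 4.26 TPM, in Pregnancy replicate 3.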
